A study of Homo sapiens with 12 samples.

Results

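The 47 genes described here encode the machinery that copies DNA in S phase, and all of them were found by gene name among the 58721 genes of the deposited count and TPM tables. They comprise 8 groups by role, namely licensing factors, the MCM2-7 helicase, firing factors, primase and polymerases, the sliding clamp with its loader, single-strand binding and joining factors, deoxynucleotide enzymes, and chromatin, checkpoint and transcription factors of the fork. RNA-seq was performed on Pa-Tu-8902 and MIA PaCa-2, a pair of human pancreatic cancer cell lines whose iDox-shGOT1 derivatives carry a short hairpin RNA against GOT1, the cytosolic aspartate aminotransferase, under the control of doxycycline (dox). Each line gave 3 untreated and 3 dox-treated libraries, and the dox groups were collected on day 5. All 12 libraries came from cells with the hairpin, none received dox without it, and the effect of dox itself and that of GOT1 loss cannot be told apart. The labels give the dox dose in µM/mL and the paper in µg/mL, so the dose is not printed here. The sources used here do not name the hairpin of the sequenced cells and do not say whether replicates were separate cultures, and p-values thus measure the spread between these libraries, which may be technical. The line of each library is taken from its title.

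Total counts ran from 26226537 to 43406137 per library. GOT1 RNA fell by 4.64 on the log2 scale in Pa-Tu-8902 and by 4.76 in MIA PaCa-2. Libraries titled Pa-Tu-8902 held EPCAM at 543 to 698 TPM and CDH1 at 60.0 to 139 TPM, whereas those titled MIA PaCa-2 held at most 0.36 and 0.22 TPM of these epithelial markers but 128 to 413 TPM of KRT19. CDKN2A, a gene that MIA PaCa-2 is known to have lost, was at 173 to 238 TPM in the former and at most 0.30 TPM in the latter. The acinar markers summed to at most 0.26 TPM in every library. Of the 5 fibroblast markers in Pa-Tu-8902, COL1A1 was at 3.43 to 6.31 TPM without and 17.5 to 21.2 TPM with dox and PDGFRB at 0.04 to 0.07 and 0.22 to 0.41 TPM, while COL3A1, DCN and LUM were at most 0.14 TPM, and the part of this in the results below was not tested. Leukocyte markers summed to 3.55 to 7.06 TPM in Pa-Tu-8902 and to 9.20 to 13.6 TPM in MIA PaCa-2, mostly CD68, with PTPRC at most 0.14 TPM. Untreated replicate 2 of MIA PaCa-2 stood apart from the other untreated libraries of its line, with a chi-square per gene of 28.7 and 27.0 against them, where these differed from each other by 6.65, and the next largest value within any group was 22.0, between dox replicates 1 and 2 of Pa-Tu-8902. Its TPM-weighted mean effective length was 1163 bases, against 1282 and 1290.1, and values without it are given beside the counts and the members that it moves most.

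A human cell copies its genome once per division. In G1 the origin recognition complex, CDC6 and CDT1 load the MCM2-7 ring onto DNA. At the start of S phase the DBF4-dependent kinase CDC7, together with CDK activity, recruits CDC45 and the GINS complex to form the active helicase. Primase and polymerase alpha then start each strand, RFC loads the PCNA clamp, and polymerases delta and epsilon extend the DNA while RPA covers the exposed single strand and FEN1 and LIG1 finish the lagging strand. Transcription of most of these genes is driven by E2F factors and peaks at the G1/S boundary, and pancreatic cancer cells carry lesions that keep this programme active.

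Without dox the members were expressed well above the typical gene. Their median normalized count was 3067 in untreated Pa-Tu-8902 and 3193 in untreated MIA PaCa-2, against medians of 683 and 639 over all tested genes. A normalized count is the RSEM expected count divided by the library's relative effective size, so it is comparable between the libraries of a line. Changes with dox were tested in each line with the quasi-likelihood test of edgeR, adjusted by the Benjamini-Hochberg method over all tested genes, which gives every adjusted p below. The words fell and rose are kept for genes with an adjusted p below 0.01, and a gene is termed past the fold limit when it also changed by at least 1.5-fold, the thresholds of the paper's methods.

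Most of the replication genes were lower with dox, and by little. In Pa-Tu-8902, 2 of the 47 members, ORC1 and TYMS, fell past the fold limit (4.26%, against 7.12% of the 14949 genes tested), and 0 rose past it (background 9.22%). DESeq2 called the same 2 members, and 33 members (70.2%) had an unadjusted p below 0.05 in edgeR, beside 56.6% of all tested genes. With no limit on the fold, 24 members fell in this line (51.1%, background 19.1%) and 0 rose (background 19.0%). The 24 falls ran from 12.4% to 38.4%, and the median over all 47 members was a log2 fold change of -0.22, beside 0.0014 over all tested genes. In MIA PaCa-2, 5 members fell past the fold limit, namely ORC1, POLD1, RFC4, RPA3 and TYMS (10.6%, against 7.64% of 14589 genes), and 0 rose past it (background 4.36%). DESeq2 called the same 5, and 32 members (68.1%, beside 49.6% of all genes) had an unadjusted p below 0.05 in edgeR. With no fold limit, 17 members fell there (36.2%, background 14.7%) and 3 rose (6.38%, background 12.6%), namely CDT1, PRIM2 and RRM2. The median over the members was -0.13 on the log2 scale in MIA PaCa-2, beside -0.0089 over all genes. Without untreated replicate 2, 3 members fell past the fold limit in MIA PaCa-2, ORC1, POLD1 and RFC4, while 21 fell and 5 rose with no fold limit and the median became -0.073. Leaving out dox replicate 1, 2 or 3 of this line instead gave 13, 11 or 13 falls and 1 rise each with no fold limit.

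Members past an adjusted p of 0.01 without the fold limit depend on how precisely a gene is measured. The standard error of the log2 fold change had a median of 0.055 over the members and 0.083 over all genes in Pa-Tu-8902, and of 0.066 and 0.094 in MIA PaCa-2, so that small changes of the members pass more readily than those of a typical gene. On TPM values with limma, fewer members passed, with 14 lower in Pa-Tu-8902 and 4 lower in MIA PaCa-2 at a pseudocount of 1. Past the fold limit on that scale were TYMS in Pa-Tu-8902 and none in MIA PaCa-2, where ORC1 and RFC4 passed at a pseudocount of 0.1. The same fits moved the split of called genes in MIA PaCa-2, of which 63.7% were lower by edgeR and 55.1% or 53.7% on log2(TPM + 1) or log2(TPM + 0.1). In bulk RNA, fewer cells in S phase and less of each RNA per cell cannot be told apart.

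Summed over the 47 genes, the share of all counts was 0.645% to 0.654% in the untreated and 0.574% to 0.588% in the dox-treated Pa-Tu-8902 libraries. In MIA PaCa-2 the untreated libraries had 0.694% to 0.704% and the dox-treated ones 0.654% to 0.658%. The dox libraries lay below the untreated ones in both lines, and the mean share was lower by a larger amount in Pa-Tu-8902. On the TPM scale the untreated replicate 2 of MIA PaCa-2 had a summed level of 3928, below the 4222 and 4201 of its group and close to the highest dox library at 3902, although its share of counts was 0.702%.

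**Figure D1:**
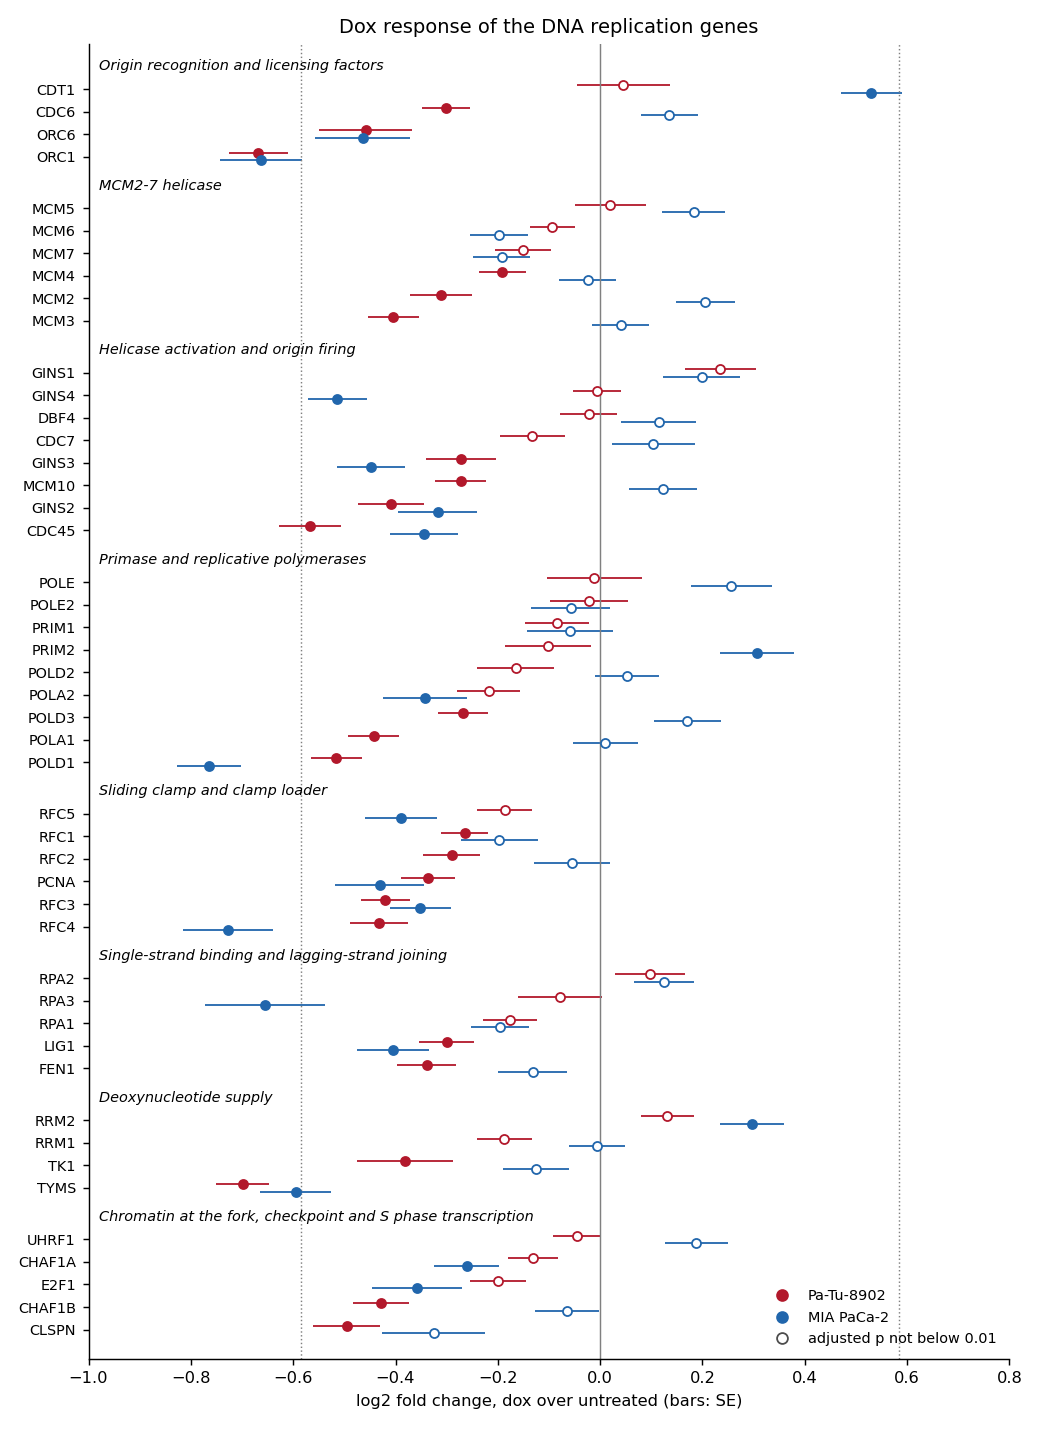
Log2 fold change with dox (horizontal axis) of each of the 47 genes, grouped by role, in Pa-Tu-8902 (red) and MIA PaCa-2 (blue). Bars are standard errors of the edgeR fit, filled points have an adjusted p below 0.01, and dotted lines mark 1.5-fold. Most points lie left of 0, and ORC1 and TYMS lie left of the dotted line in both lines.

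Among the licensing factors, ORC1 fell in both lines, and the pair of MCM loaders CDC6 and CDT1 did not move alike in the lines. ORC1 (chromosome 1, 52372829 to 52404423, minus strand, GRCh38) encodes the largest subunit of the origin recognition complex, the ATPase that marks origins. ORC1 was counted at 1099, 1155 and 1146 in the untreated Pa-Tu-8902 libraries and at 702, 706 and 733 in the dox libraries. For ORC1, the MIA PaCa-2 counts were 1271, 1145 and 1207 without and 692, 818 and 778 with dox. All dox libraries were below all untreated libraries of their line, by a wide gap. The log2 fold changes of ORC1 were -0.67 (SE 0.057, adjusted p = 4.66e-06) in Pa-Tu-8902 and -0.66 (SE 0.080, adjusted p = 6.45e-05) in MIA PaCa-2, or falls of 37.1% and 36.8%. On log2(TPM + 1) its fold change was -0.54 and -0.57, under the fold limit in both lines. In untreated Pa-Tu-8902, ORC1 was at 15.0 ± 0.658 TPM (mean ± SD, n = 3), at the low end of the members.

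CDT1 (chromosome 16, 88803789 to 88809258, plus strand) brings the MCM ring to the origin and is destroyed once S phase begins. CDT1 was counted at 3672, 3778 and 4280.2 in untreated and 3438, 4427 and 4236 in dox-treated Pa-Tu-8902. For CDT1, the MIA PaCa-2 counts were 2207, 2278 and 2331 without dox and 3249.9, 3399 and 3194 with it. The groups overlapped in Pa-Tu-8902, while every dox library of MIA PaCa-2 was above every untreated one. The log2 fold change of CDT1 was 0.045 (SE 0.091, adjusted p = 0.708) in Pa-Tu-8902, where it was -0.0093 without dox replicate 2, and 0.53 (SE 0.059, adjusted p = 3.78e-05) in MIA PaCa-2, the largest rise of any member there. CDC6 had log2 fold changes of -0.30 (SE 0.047, adjusted p = 0.000322) and 0.14 (SE 0.055, adjusted p = 0.0699) in these lines. ORC6, the smallest subunit of the origin recognition complex, fell by 0.46 and 0.46 on the log2 scale (adjusted p = 0.00163 and 0.00216).

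Of the 6 subunits of the MCM2-7 helicase, the ring that unwinds DNA at the fork, 3 fell in Pa-Tu-8902 and 0 passed the adjusted p in MIA PaCa-2, and none passed the fold limit in either line. MCM3 (chromosome 6, 52264014 to 52284881, minus strand) had the smallest p of the group in Pa-Tu-8902. MCM3 was counted at 15913, 16319 and 16987 in untreated and 12105, 12916 and 12166 in dox-treated Pa-Tu-8902. For MCM3, the MIA PaCa-2 counts were 11648, 11490.3 and 11564 without and 12006, 12058 and 11610.0 with dox. The groups were apart in Pa-Tu-8902 and overlapped in MIA PaCa-2. MCM3 had a log2 fold change of -0.40 (SE 0.050, adjusted p = 6.83e-05) in Pa-Tu-8902 and of 0.040 (SE 0.056, adjusted p = 0.596) in MIA PaCa-2, where it was -0.0033 with effective lengths as offsets. MCM2 (chromosome 3, 127598410 to 127622436, plus strand), the subunit that also carries histones H3 and H4 through the fork, had the smallest p of the group in MIA PaCa-2. MCM2 was counted at 13063, 13167 and 14354 in untreated and 10172, 11538 and 10995 in dox-treated Pa-Tu-8902. For MCM2, the MIA PaCa-2 counts were 7578, 7728 and 7591 without and 8859.7, 9091 and 8461 with dox. The dox libraries were lower than the untreated ones in Pa-Tu-8902 and higher in MIA PaCa-2, with no overlap in either. Its log2 fold changes were -0.31 (SE 0.060, adjusted p = 0.00143) and 0.21 (SE 0.057, adjusted p = 0.0136), the latter short of the threshold. MCM4 fell by 0.19 on the log2 scale in Pa-Tu-8902 (adjusted p = 0.00521), and MCM5, MCM6 and MCM7 had log2 fold changes from -0.15 to 0.020 there and from -0.20 to 0.18 in MIA PaCa-2, none past the adjusted p. The MIA PaCa-2 calls depended on untreated replicate 2. Without it MCM2 rose (0.21, adjusted p = 0.00212), and MCM6 (-0.22, adjusted p = 0.00111) and MCM7 (-0.18, adjusted p = 0.00312) fell. MCM3, MCM4 and MCM5 still did not pass. Summed over the ring, the level was 1126 ± 19.1 TPM without and 1020 ± 6.86 TPM with dox in Pa-Tu-8902 (mean ± SD, n = 3), and 1032 ± 89.5 and 1035 ± 49.6 TPM in MIA PaCa-2.

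The 8 genes of helicase activation and origin firing gave 4 falls and 0 rises past the adjusted p in each line, 3 of the falls shared (CDC45, GINS2 and GINS3), and none past the fold limit. CDC45 (chromosome 22, 19479457 to 19520612, plus strand), which joins MCM2-7 and GINS in the active helicase, had the smallest p of the group in Pa-Tu-8902. CDC45 was counted at 1329.9, 1502 and 1462 in untreated and 993, 964 and 943 in dox-treated Pa-Tu-8902. For CDC45, the MIA PaCa-2 counts were 1313, 1291 and 1258 without and 1032, 957 and 1052 with dox. Dox libraries were lower without overlap in both lines. CDC45 fell with log2 fold changes of -0.57 (SE 0.061, adjusted p = 2.52e-05) and -0.34 (SE 0.066, adjusted p = 0.00167), and it passed the fold limit in Pa-Tu-8902 when untreated replicate 1 was left out (-0.62). In MIA PaCa-2 its adjusted p was not below 0.01 without dox replicate 2 or on either TPM scale.

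GINS4 (chromosome 8, 41529218 to 41545030, plus strand) encodes the SLD5 subunit of the GINS ring. GINS4 was counted at 3038, 2993 and 3170.2 in untreated and 3025, 3122 and 3015 in dox-treated Pa-Tu-8902. For GINS4, the MIA PaCa-2 counts were 6356, 6393 and 6256 without and 4230.2, 4538 and 4539 with dox. The Pa-Tu-8902 groups could not be separated, while each MIA PaCa-2 dox library was well below each untreated one. Its log2 fold change was -0.0059 (SE 0.047, adjusted p = 0.929) in Pa-Tu-8902, with a sign that changed under 6 alternatives, and -0.51 (SE 0.058, adjusted p = 4.02e-05) in MIA PaCa-2. The other GINS subunits did not share this pattern by their values. GINS2 fell by 0.41 and 0.32 and GINS3 by 0.27 and 0.45 on the log2 scale in Pa-Tu-8902 and MIA PaCa-2, and GINS1 had values of 0.23 and 0.20 that did not pass. Without untreated replicate 2 of MIA PaCa-2, GINS1 rose in that line (0.26, adjusted p = 0.00106). GSE1, on the other strand, overlaps exons of GINS2 at 45.4% of its TPM, and an unnamed gene on the other strand overlaps GINS3 at 35.7%. The libraries kept strand, but the paper gives only default parameters and does not state the strand setting of RSEM. Whether reads of such overlaps were told apart by strand is therefore not known. MCM10, which aids helicase activation, fell in Pa-Tu-8902 (-0.27, SE 0.050, adjusted p = 0.000958) and had a value of 0.12 in MIA PaCa-2 that did not pass. The kinase genes CDC7 and DBF4 passed in neither line, with log2 fold changes of -0.13 and -0.023 in Pa-Tu-8902 and of 0.10 and 0.11 in MIA PaCa-2.

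POLD1 (chromosome 19, 50384204 to 50418018, plus strand), the catalytic subunit of polymerase delta, had the smallest p of the 9 primase and polymerase genes in both lines. POLD1 was counted at 4334, 4347 and 4588 in untreated and 3049, 3001 and 3231 in dox-treated Pa-Tu-8902. For POLD1, the MIA PaCa-2 counts were 2903, 3145 and 3073 without and 1844, 1815 and 1713 with dox. The dox libraries were below the untreated ones in both lines, with spreads far smaller than the gap. POLD1 fell by 30.1% in Pa-Tu-8902, a log2 fold change of -0.52 (SE 0.050, adjusted p = 1.17e-05) short of the fold limit, and by 41.1% in MIA PaCa-2, -0.76 (SE 0.063, adjusted p = 3.77e-06), the largest fall of any member in that line. On log2(TPM + 1) its value in MIA PaCa-2 was -0.51, under the fold limit. In the deposited transcript estimates, protein-coding transcripts made up 59.4% ± 2.13 of POLD1's TPM in untreated and 47% ± 2.14 in dox-treated MIA PaCa-2, beside 64.3% ± 2.94 and 60.6% ± 1.60 in Pa-Tu-8902 (mean ± SD, n = 3).

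Subunits of the same polymerase were not alike. The accessory subunit POLD2 had log2 fold changes of -0.17 and 0.052 that did not pass, and POLD3 fell in Pa-Tu-8902 (-0.27, SE 0.049, adjusted p = 0.000909) with a value of 0.17 in MIA PaCa-2 that did not pass. POLA1, the catalytic subunit of polymerase alpha, was counted at 2724, 2754 and 2608 in untreated and 1964, 2058 and 1927 in dox-treated Pa-Tu-8902 (-0.44, SE 0.050, adjusted p = 3.51e-05), and at 4212, 3744 and 3998 and 3919, 4138 and 3984 in MIA PaCa-2 (0.010, SE 0.063, adjusted p = 0.91). It was lower with dox without overlap in Pa-Tu-8902, and the groups overlapped in MIA PaCa-2. POLA2, its regulatory partner, had -0.22 (SE 0.062, adjusted p = 0.013) in Pa-Tu-8902 and fell in MIA PaCa-2 (-0.34, SE 0.082, adjusted p = 0.00602). PRIM2, the large primase subunit, rose in MIA PaCa-2 (0.31, SE 0.072, adjusted p = 0.00544), while PRIM1, POLE and POLE2 passed in neither line, with values from -0.085 to -0.012 in Pa-Tu-8902 and from -0.059 to 0.26 in MIA PaCa-2. NACA, at 3170% of the TPM of PRIM1, overlaps it on the same strand, so the counts of PRIM1 are uncertain.

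The sliding clamp and its loader had all 6 members below 0 in both lines, though RFC2 in MIA PaCa-2 was 0.015 without untreated replicate 2. Of these genes, 5 fell in Pa-Tu-8902 (83.3%, background 19.1%) and 4 fell in MIA PaCa-2 (66.7%, background 14.7%). The group medians were -0.31 and -0.37 on the log2 scale. RFC4 (chromosome 3, 186789880 to 186807058, minus strand) encodes a core ATPase subunit of the loader. RFC4 was counted at 3638, 3534 and 3449 in untreated and 2803, 2450.1 and 2622 in dox-treated Pa-Tu-8902. For RFC4, the MIA PaCa-2 counts were 1988, 2429.6 and 1949 without and 1231, 1261 and 1349 with dox. Dox libraries were lower in both lines with no overlap, and untreated replicate 2 was the highest in MIA PaCa-2. RFC4 fell by 25.9% in Pa-Tu-8902, -0.43 (SE 0.057, adjusted p = 0.000108), and by 39.6% in MIA PaCa-2, -0.73 (SE 0.088, adjusted p = 6.77e-05). Without untreated replicate 2 the latter was -0.63 and still past the fold limit. Exons of RFC4 overlap EIF4A2 on the other strand, which has 236% of its TPM and rose by 0.40 on the log2 scale in MIA PaCa-2 (adjusted p = 0.000469), and reads of the overlap cannot be assigned here.

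RFC3 (chromosome 13, 33818069 to 33966558, plus strand), another loader subunit, had the smallest p of the group in Pa-Tu-8902. RFC3 was counted at 3103, 2954 and 3069 in untreated and 2272, 2221 and 2329 in dox-treated Pa-Tu-8902. For RFC3, the MIA PaCa-2 counts were 3332, 3194 and 3054 without and 2469, 2495 and 2543 with dox. The groups did not overlap in either line. Its log2 fold changes of -0.42 (SE 0.047, adjusted p = 3.58e-05) and -0.35 (SE 0.060, adjusted p = 0.000731) were under the fold limit. PCNA, the clamp itself and among the 3 highest members by TPM in both untreated lines, fell by 20.8% and 25.8% (adjusted p = 0.000328 and 0.00224). RFC1 and RFC2 fell in Pa-Tu-8902 (-0.27 and -0.29) and did not pass in MIA PaCa-2 (-0.20 and -0.055), and RFC5 was the reverse, with -0.19 not past in Pa-Tu-8902 and a fall of 0.39 in MIA PaCa-2. WSB2 overlaps RFC5 on the other strand at 187% of its TPM.

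Of the 5 genes of single-strand binding and lagging-strand joining, LIG1 and FEN1 fell in Pa-Tu-8902 (40.0%, background 19.1%). In MIA PaCa-2, RPA3 and LIG1 fell (40.0%, background 14.7%), and the difference in response passed for none of the 5. RPA3 (chromosome 7, 7636518 to 7718607, minus strand) encodes the smallest subunit of replication protein A, the complex that coats single-stranded DNA. RPA3 was counted at 1149, 1142 and 1195 in untreated and 958, 1219.9 and 1119 in dox-treated Pa-Tu-8902. For RPA3, the MIA PaCa-2 counts were 1516, 2012 and 1394 without and 1019, 1098 and 1009 with dox. The groups overlapped in Pa-Tu-8902 but were apart in MIA PaCa-2, with untreated replicate 2 far above the others. The log2 fold change of RPA3 was -0.078 (SE 0.082, adjusted p = 0.456) in Pa-Tu-8902 and -0.65 (SE 0.12, adjusted p = 0.00104) in MIA PaCa-2. Without untreated replicate 2 it was -0.49 (adjusted p = 4.44e-06), under the fold limit, and with effective lengths as offsets the adjusted p was 0.0105. The larger subunits RPA1 and RPA2 passed in neither line, at -0.18 and 0.10 in Pa-Tu-8902 and -0.20 and 0.12 in MIA PaCa-2. Without untreated replicate 2, RPA1 fell in MIA PaCa-2 (-0.21, adjusted p = 0.00184).

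LIG1 (chromosome 19, 48115445 to 48170603, minus strand) encodes the ligase that seals Okazaki fragments. LIG1 was counted at 1854, 1974 and 1961 in untreated and 1552, 1645 and 1503 in dox-treated Pa-Tu-8902. For LIG1, the MIA PaCa-2 counts were 2021, 2241 and 2082 without and 1493, 1595 and 1701 with dox. The dox libraries were the lower ones in both lines. LIG1 fell in both by 0.30 (SE 0.054, adjusted p = 0.000907) and 0.40 (SE 0.070, adjusted p = 0.000867) on the log2 scale, but on log2(TPM + 1) its value was -0.21 (adjusted p = 0.118) and -0.17 (adjusted p = 0.139). FEN1 (chromosome 11, 61792911 to 61797238, plus strand), the nuclease that trims the flaps of those fragments, was counted at 7745, 7571 and 8051 in untreated and 5713, 6601 and 6151 in dox-treated Pa-Tu-8902. For FEN1, the MIA PaCa-2 counts were 3386, 3855 and 3371 without and 3202, 3204 and 3276 with dox. Both lines had their dox libraries below the untreated ones, by a small margin in MIA PaCa-2. FEN1 fell in Pa-Tu-8902 (-0.34, SE 0.058, adjusted p = 0.000648) and did not pass in MIA PaCa-2 (-0.13, SE 0.067, adjusted p = 0.137).

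TYMS (chromosome 18, 657653 to 673578, plus strand), thymidylate synthase, makes the thymidine monophosphate that DNA synthesis requires, and it gave the largest fall of any member in Pa-Tu-8902. TYMS was counted at 4003, 3982 and 4345 in untreated and 2483, 2594 and 2519 in dox-treated Pa-Tu-8902. For TYMS, the MIA PaCa-2 counts were 13123, 14844 and 12859 without and 8942, 8718 and 9359.9 with dox. The groups were far apart in both lines, and untreated replicate 2 was again the highest in MIA PaCa-2. TYMS fell by 38.4% in Pa-Tu-8902, -0.70 (SE 0.051, adjusted p = 1.69e-06), and by 33.8% in MIA PaCa-2, -0.60 (SE 0.070, adjusted p = 5.20e-05). In MIA PaCa-2 the value lay just past the fold limit and was under it without untreated replicate 2 (-0.54, adjusted p = 2.48e-08), without dox replicate 2 (-0.58) and on log2(TPM + 1) (-0.55). ENOSF1, which overlaps TYMS on the other strand at 9.59% of its TPM, had log2 fold changes of 0.35 and 0.27 (adjusted p = 0.0876 and 0.0276), opposite in sign to those of TYMS.

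The other deoxynucleotide genes moved less. RRM2, the regulated subunit of ribonucleotide reductase, rose in MIA PaCa-2 (0.30, SE 0.062, adjusted p = 0.0029) and had 0.13 (SE 0.051, adjusted p = 0.0543) in Pa-Tu-8902, with every dox library above every untreated one in both lines. RRM1, its large subunit, passed in neither line (-0.19 and -0.0062). TK1, the thymidine kinase of the salvage route, fell in Pa-Tu-8902 (-0.38, SE 0.094, adjusted p = 0.00625) and did not pass in MIA PaCa-2 (-0.13). Of this group TYMS alone fell past the fold limit, and TYMS and RRM2 had opposite signs in each line.

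Among the 5 chromatin, checkpoint and transcription genes, CHAF1B and CLSPN fell in Pa-Tu-8902 (40.0%, background 19.1%). In MIA PaCa-2, CHAF1A and E2F1 fell (40.0%, background 14.7%), and none of the 5 passed the fold limit in either line. CHAF1B (chromosome 21, 36385392 to 36419015, plus strand) and CHAF1A (chromosome 19, 4402640 to 4445018, plus strand) encode subunits of CAF-1, which places histones on new DNA. CHAF1B was counted at 1469.8, 1384 and 1485 in untreated and 1038, 1074 and 1111 in dox-treated Pa-Tu-8902. For CHAF1B, the MIA PaCa-2 counts were 1743, 1739.9 and 1684 without and 1742, 1588 and 1609 with dox. Its groups were apart in Pa-Tu-8902 and overlapped in MIA PaCa-2. CHAF1B had log2 fold changes of -0.43 (SE 0.055, adjusted p = 9.17e-05) and -0.065 (SE 0.063, adjusted p = 0.435). MORC3 overlaps exons of CHAF1B on the same strand at 47.2% of its TPM, and MORC3 had log2 fold changes of -0.026 and 0.0044. CHAF1A was counted at 2425, 2424 and 2281 in untreated and 2186, 2199 and 2124 in dox-treated Pa-Tu-8902. For CHAF1A, the MIA PaCa-2 counts were 3387, 3546 and 3549 without and 2999, 3036 and 2714 with dox. Dox libraries were lower in both lines without overlap. CHAF1A had log2 fold changes of -0.13 (SE 0.049, adjusted p = 0.0437) and -0.26 (SE 0.064, adjusted p = 0.00698), the latter losing its adjusted p below 0.01 under 8 of 15 alternatives. UBXN6 overlaps CHAF1A on the other strand at 98.0% of its TPM. CLSPN, the adaptor of the replication checkpoint, had values of -0.50 (SE 0.065, adjusted p = 0.000107) and -0.33 (SE 0.10, adjusted p = 0.0227). E2F1, the transcription factor of the G1/S programme, had -0.20 (SE 0.054, adjusted p = 0.0103) and -0.36 (SE 0.088, adjusted p = 0.00728), the latter being -0.24 without untreated replicate 2, and UHRF1, which reads hemimethylated DNA, passed in neither line (-0.046 and 0.19).

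**Figure D2:**
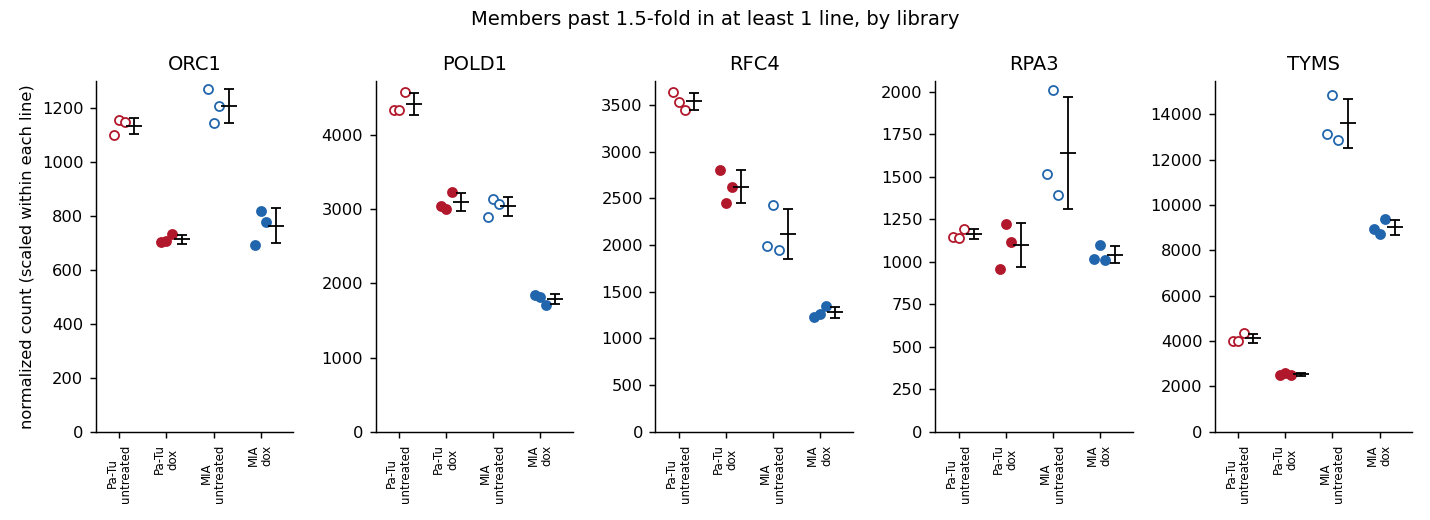
Normalized counts (vertical axis, from 0, scaled within each line) of the 5 members past the fold limit in at least 1 line. Points are the 3 libraries of a group, open without and filled with dox, and black bars are the mean ± SD. The ORC1 and TYMS groups are apart in both lines, and untreated replicate 2 of MIA PaCa-2 is the highest RPA3 and RFC4 point of its group.

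Side by side, 30 of the 47 members were below 0 in both lines, 12 were below 0 in Pa-Tu-8902 and above 0 in MIA PaCa-2, 5 were above 0 in both (CDT1, MCM5, GINS1, RPA2 and RRM2), and 0 were above 0 in Pa-Tu-8902 and below 0 in MIA PaCa-2. Past the adjusted p, 11 members fell in both lines, namely ORC1, ORC6, CDC45, GINS2, GINS3, POLD1, PCNA, RFC3, RFC4, LIG1 and TYMS, which is 11 of the 24 that fell in Pa-Tu-8902 and 11 of the 17 in MIA PaCa-2. A further 14 passed in neither line. Without untreated replicate 2 of MIA PaCa-2 the sign counts were again 30, 12, 5 and 0, with RFC2 and POLA1 changing places, and 12 members fell in both lines, RFC1 being added. Across the 47 genes the log2 fold changes of the lines had a Pearson r of 0.585 and a Spearman rho of 0.539, a description over genes that share libraries and are not independent. These sign counts, shared falls and correlations were not computed over all tested genes. Whether the members agree between the lines more than other genes do was therefore not tested. The median difference of the members, Pa-Tu-8902 minus MIA PaCa-2, was -0.10 on the log2 scale, beside -0.0015 over all genes.

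Whether a member responded differently in the lines was tested in edgeR with a contrast between the 2 changes, fitted to the 12 libraries together. No member passed the adjusted p and the 1.5-fold limit (0 of 47 in edgeR, where 10.4% of the 16544 genes tested were called in either direction, with 21 members, or 44.7%, at an unadjusted p below 0.05 beside 36.7% of all genes). DESeq2 called 1 member, RPA3, and limma on TPM called 0. With no fold limit 9 members passed. In 8 of them the response was lower in Pa-Tu-8902 (17.0% of the members, background 7.91%), and GINS4 was the only member in which it was higher (2.13%, background 9.01%). MCM2 had the largest difference of the 9, -0.52 (SE 0.088, adjusted p = 0.000309), being lower with dox in Pa-Tu-8902 and higher in MIA PaCa-2. The other genes of origin licensing and the helicase among the 9 were CDC6 (-0.44), CDT1 (-0.48), MCM3 (-0.44) and MCM10 (-0.39). POLA1 (-0.45), POLD3 (-0.44) and CHAF1B (-0.36) completed the 8, and GINS4 had 0.51 (SE 0.075, adjusted p = 7.22e-05). CDC6 was counted at 5056, 4918 and 5269.7 in untreated and 4188, 4136 and 4039 in dox-treated Pa-Tu-8902. For CDC6, the MIA PaCa-2 counts were 4073, 3949 and 3959 without and 4391, 4305 and 4461 with dox. The dox libraries were below the untreated ones in Pa-Tu-8902 and slightly above them in MIA PaCa-2. RPA3 had a difference of 0.58 (SE 0.16, adjusted p = 0.0113), which did not pass, and of 0.42 (adjusted p = 0.0109) without untreated replicate 2 of MIA PaCa-2. For ORC1 the difference was -0.0038 (SE 0.10) and for TYMS -0.10 (SE 0.091), and neither passed. Without untreated replicate 2 of MIA PaCa-2, 8 members were lower and 1 was higher in Pa-Tu-8902 with no fold limit, with effective lengths as offsets 4 and 0 were, and on TPM 2 and 0 were, MCM2 and MCM3.

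**Figure D3:**
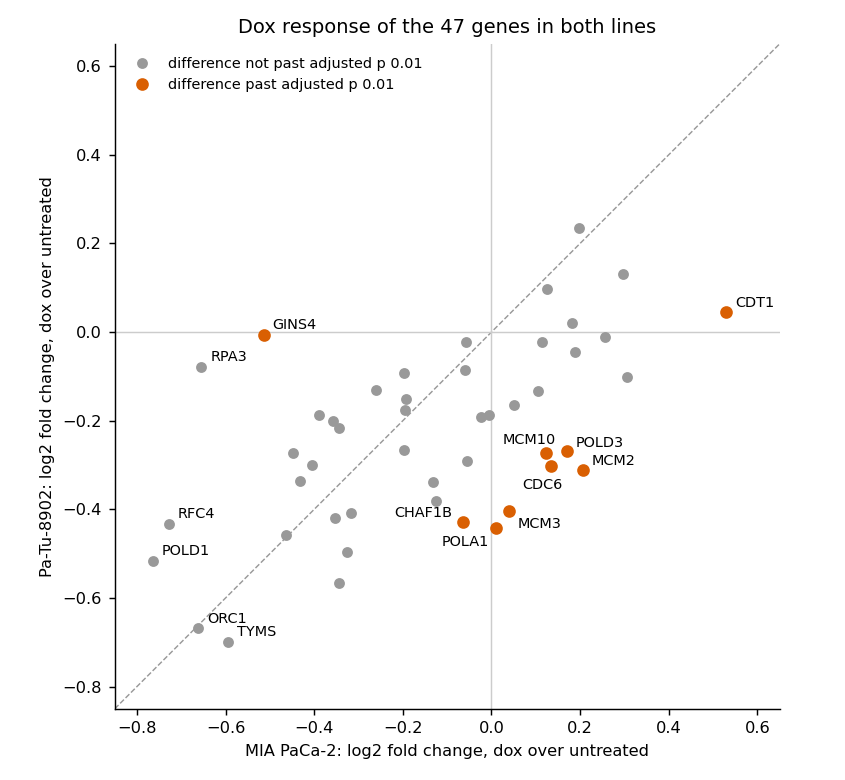
Log2 fold change with dox of the 47 genes in MIA PaCa-2 (horizontal axis) and Pa-Tu-8902 (vertical axis). The dashed line marks equal responses, and orange points passed the test of the difference at an adjusted p below 0.01 with no fold limit. Of the 9 orange points, 8 lie below the dashed line and GINS4 lies above it.

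The untreated lines started from different levels of individual members. On the TPM scale, which corrects for gene length, TK1 (367 ± 39.1, mean ± SD, n = 3), PCNA (344 ± 8.59), MCM4 (329 ± 14.1) and MCM7 (258 ± 3.19) were the highest in Pa-Tu-8902, and MCM7 (452 ± 27.2), TYMS (408 ± 8.62) and PCNA (349 ± 15.2) in MIA PaCa-2. These are gene totals, and protein-coding transcripts were estimated at 43.3% of that of MCM7 in untreated Pa-Tu-8902 and 41.6% in untreated MIA PaCa-2. The SDs of TK1, PCNA and MCM4 in Pa-Tu-8902 overlap in part, so their order there is not resolved. At the lower end were ORC1 (15.0 ± 0.658), CHAF1B (15.7 ± 0.812) and CDC7 (17.2 ± 0.832) in Pa-Tu-8902, and CDC7 (13.4 ± 1.20), POLD3 (15.4 ± 0.875) and PRIM2 (15.8 ± 1.72) in MIA PaCa-2, and the libraries of ORC1 and CHAF1B overlap, so their order is not resolved either. Tested on counts, 11 members were higher in Pa-Tu-8902 past 1.5-fold and an adjusted p of 0.01 (23.4%, background 29.4%) and 7 were higher in MIA PaCa-2 (14.9%, background 28.2%). Both shares are below those of all genes.

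TYMS showed the largest difference, with a log2 ratio of Pa-Tu-8902 over MIA PaCa-2 of -1.85 (SE 0.066, adjusted p = 2.19e-14), and the other genes higher in MIA PaCa-2 were GINS4 (-1.17), UHRF1 (-1.03), MCM7 (-0.83), POLA1 (-0.68), CHAF1A (-0.68) and RPA3 (-0.62). Higher in Pa-Tu-8902 were POLA2 (1.72, SE 0.076, adjusted p = 4.46e-13), PRIM2 (1.21), POLD3 (1.18), TK1 (1.12), PRIM1 (1.02), FEN1 (1.02), MCM4 (0.93), MCM2 (0.71), CDT1 (0.66), MCM5 (0.64) and RFC4 (0.62). Partners in 1 complex differed in sign, as POLA1 against POLA2, PRIM1 and PRIM2, and MCM7 against MCM2, MCM4 and MCM5. Across the 47 genes the untreated log2 TPM of the lines had a Pearson r of 0.853 and a Spearman rho of 0.863, as a description. Without untreated replicate 2 of MIA PaCa-2, RPA3 was no longer past the limits in this comparison, and POLE and GINS2 were. With effective lengths as offsets, MCM5, RFC4 and CHAF1A were no longer past them, and GINS1 was.

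**Figure D4:**
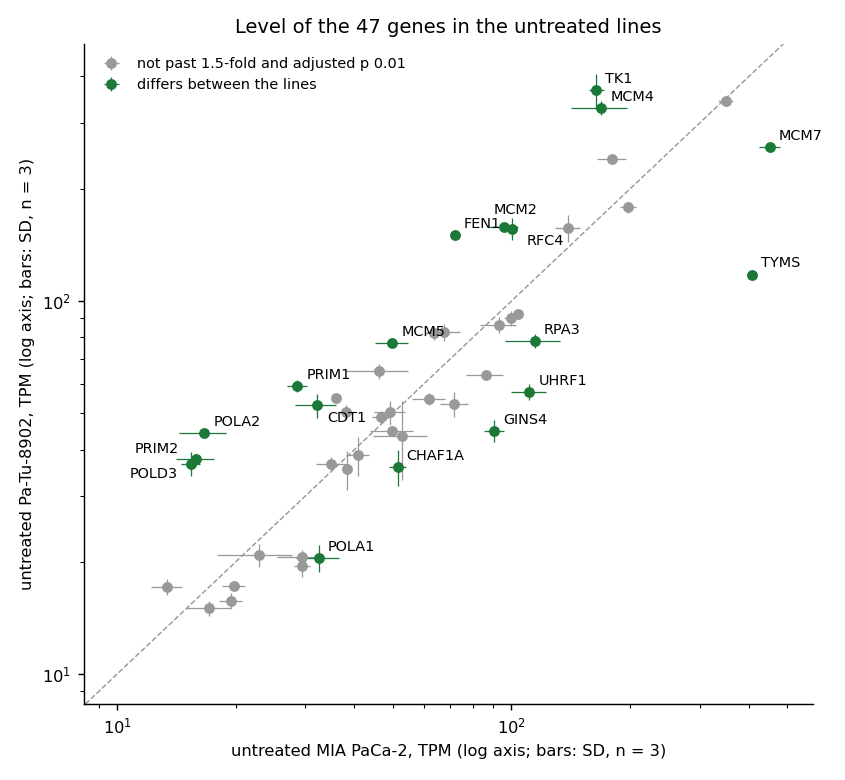
TPM of the 47 genes in untreated MIA PaCa-2 (horizontal axis, log scale) and untreated Pa-Tu-8902 (vertical axis, log scale), as mean ± SD of 3 libraries. The dashed line marks equal levels, and green points differ by at least 1.5-fold with an adjusted p below 0.01 in the test on counts. POLA2, PRIM2 and POLD3 lie well above the dashed line and TYMS and GINS4 well below it.

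RefSeq promoters (GRCh38.p14, from 250 bases before to 50 after a start site) were given for 41 of the 47 members, 53 promoters in all. They were searched on both strands for the E2F site (TTTCCCGC, TTTGGCGC, TTTGCCGC or TTTCGCGC), the CCAAT box (CCAAT), and the cell cycle homology region (TTTGAA or TTCGAA). An E2F match was held by 22 of the 53 member promoters, or by 21 of 41 genes (51.2%), beside 3.31% of all 35116 promoters and 3.99% of all 27305 genes. The CCAAT box was held by 25 of 41 member genes (61.0%, beside 39.7% of all genes) and the cell cycle homology region by 3 (7.32%, beside 19.5%). A match is a string of letters and not a site shown to be bound. The 21 members with an E2F match had median log2 changes of -0.27 for Pa-Tu-8902 and -0.19 for MIA PaCa-2, and the 20 without it had -0.27 and -0.13, with 11 falls past the adjusted p in each set in Pa-Tu-8902 and 8 and 7 in MIA PaCa-2. The medians in Pa-Tu-8902 were the same to 2 decimals with and without a match. Only these exact strings were searched, so members without a match may hold E2F sites of other forms or elsewhere. Whether E2F sites go with the response was not tested.

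The 160 bases before the start site are printed for the members past the fold limit that have an entry. Their promoters differ in these motifs. The same stretch is printed for MCM6, which holds the most E2F matches of any member when both strands are counted. MCM6 passed in neither line (-0.093 and -0.20 on the log2 scale), but fell in MIA PaCa-2 without untreated replicate 2 (-0.22, adjusted p = 0.00111). RPA3 has no entry. Of the POLD1 entries, that at the start of the gene is shown. Capitals mark motif matches. In ORC1 they mark a CCAAT box on the other strand, in TYMS an E2F match on the other strand, and in MCM6 a pair of stretches, each holding 2 overlapping E2F matches on opposite strands, and 2 CCAAT boxes on the other strand. POLD1 and RFC4 hold none of the 3 motifs in these stretches, and they are among the 6 members with no match in any entry.
ORC1 (chr1:52404424-52404583, minus strand): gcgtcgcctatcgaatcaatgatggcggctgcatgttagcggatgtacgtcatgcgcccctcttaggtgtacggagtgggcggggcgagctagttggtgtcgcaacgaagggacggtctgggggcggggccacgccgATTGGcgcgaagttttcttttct
TYMS (chr18:657493-657652, plus strand): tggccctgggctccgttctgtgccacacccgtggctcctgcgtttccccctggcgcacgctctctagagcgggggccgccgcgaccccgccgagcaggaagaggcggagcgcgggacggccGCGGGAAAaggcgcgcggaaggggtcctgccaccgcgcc
POLD1 (chr19:50384163-50384322, plus strand): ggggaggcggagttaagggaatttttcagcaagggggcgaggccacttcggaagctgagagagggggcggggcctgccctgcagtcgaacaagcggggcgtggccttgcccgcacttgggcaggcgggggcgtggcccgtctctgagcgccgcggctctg
RFC4 (chr3:186806483-186806642, minus strand): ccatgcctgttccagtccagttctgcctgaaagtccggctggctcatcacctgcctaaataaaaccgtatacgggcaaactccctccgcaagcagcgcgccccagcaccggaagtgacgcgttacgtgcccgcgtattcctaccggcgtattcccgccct
MCM6 (chr2:135876444-135876603, minus strand): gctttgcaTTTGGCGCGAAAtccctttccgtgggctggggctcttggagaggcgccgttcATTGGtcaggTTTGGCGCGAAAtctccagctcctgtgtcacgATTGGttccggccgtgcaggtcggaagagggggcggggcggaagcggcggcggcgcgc

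**Figure D5:**
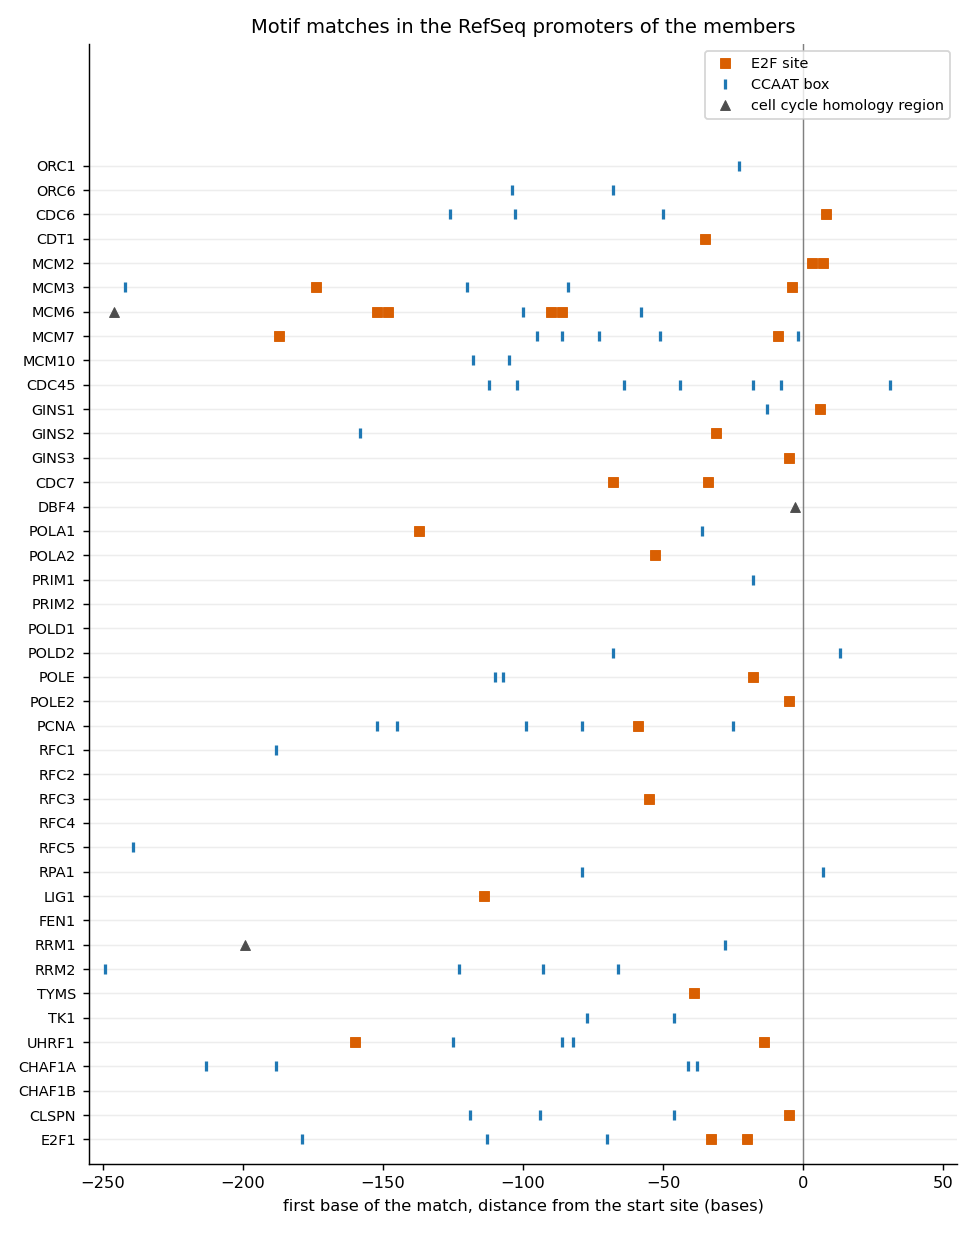
Matches to the E2F site (squares), the CCAAT box (bars) and the cell cycle homology region (triangles) in the promoters of the 41 members with an entry, by distance from the start site in bases, with all start sites of a gene on its row. E2F matches are found from -187 to 8, and 6 members have none of the 3 motifs (CHAF1B, FEN1, POLD1, PRIM2, RFC2 and RFC4).

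RSEM's transcript estimates were also deposited, and they gave the same most abundant transcript in all 12 libraries for 45 of the 47 members, POLA1 and POLE2 being the exceptions. For ORC1 this transcript, ORC1-202, made up 90.4% ± 2.45 of the gene's TPM in untreated Pa-Tu-8902 and 88.4% ± 0.66 with dox (mean ± SD, n = 3). TYMS-203 made up 88.1% ± 3.75 and 89.3% ± 2.97 there. The share of protein-coding transcripts of RFC4 was 92.0% ± 0.56 in untreated and 84.3% ± 1.94 in dox-treated MIA PaCa-2, and 95% ± 1.22 and 93.5% ± 1.35 in Pa-Tu-8902. Lower coding shares with dox were not particular to these genes, being found in 25 of the 47 members in MIA PaCa-2 (LIG1 from 67.5% to 52.5%, ORC6 from 87.4% to 76.0%) against 13 with a higher one, and in 18 against 20 in Pa-Tu-8902. The leading transcript was annotated as protein coding in all groups for 45 of the 47 members. That of MCM7, MCM7-210, was annotated as a retained intron and made up 53.9% ± 1.86 of its TPM in untreated Pa-Tu-8902 and 56.1% ± 4.01 in untreated MIA PaCa-2. That of DBF4 was annotated as subject to nonsense-mediated decay, with protein-coding transcripts at 4.89% ± 1.58 and 5.51% ± 0.756 in these groups. These estimates were not tested.

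Other genes of the cell cycle give the setting. Of 60 further replication and S phase genes, 24 fell (40.0%, background 19.1%) and 4 rose (6.67%, background 19.0%) past the adjusted p in Pa-Tu-8902. Their median log2 change was -0.16. In MIA PaCa-2, 9 fell (15.0%, near the 14.7% of all tested genes) and 5 rose (8.33%, background 12.6%), with a median of -0.039. Past the fold limit in Pa-Tu-8902 were MCM8 (-0.63), a helicase of recombination repair, DSCC1 (-0.72), a subunit of an alternative clamp loader, and E2F2 (0.61). In MIA PaCa-2 this held for CDC25A (1.00), the phosphatase that activates CDK2 at the G1/S boundary. Of 53 mitosis and G2/M genes, 10 fell in Pa-Tu-8902 (18.9%, near the 19.1% of all genes) and 3 rose (5.66%, background 19.0%), with a median of -0.058. In MIA PaCa-2, 4 of the 53 fell (7.55%, background 14.7%) and 15 rose (28.3%, background 12.6%), with a median of 0.062. MAD2L1, a spindle checkpoint gene (-1.59 for Pa-Tu-8902, -1.67 for MIA PaCa-2), and NUF2, a kinetochore gene (-1.15 and -1.04), fell past the fold limit in both lines, and CDC25B rose past it in Pa-Tu-8902 (0.63).

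Among CDK inhibitors and G1 cyclins, 2 fell (14.3%, background 19.1%) and 8 rose (57.1%, background 19.0%) of 14 tested in Pa-Tu-8902. Of 11 tested in MIA PaCa-2, 2 fell (18.2%, background 14.7%) and 3 rose (27.3%, background 12.6%). In Pa-Tu-8902, 7 of them passed the fold limit, 2 lower (14.3%, background 7.12%) and 5 higher (35.7%, background 9.22%). CDKN1C, which encodes the CDK inhibitor p57, had the largest change (1.56) and CCND3 the smallest (0.60), both named after their values were seen. The 5 with the smallest p were CDKN1B (0.75), which encodes the CDK inhibitor p27, CDKN2D (-0.79), RBL2 (0.61), CDKN2B (0.61) and CDK4 (-0.61). Those of MIA PaCa-2 were CDK6 (1.41) and CDKN2D (-1.37). The medians of this list were 0.28 and 0.080. In each line the replication genes had the lowest median of these lists.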

How the data were processed

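Per the paper's methods and the submitters' processing notes, reads were trimmed with Trimmomatic 0.39 and quantified with RSEM 1.3.1, which ran STAR 2.5.2a on GRCh38 with GENCODE v29, at default parameters. The authors deposited expected counts per gene and TPM values per gene and transcript. RSEM splits reads that match several transcripts, so 5.34% of expected counts were not whole and were rounded. Total counts of 26226537 to 43406137 per library set the counting error. Genes that reached 10 counts in 3 or more libraries were tested in each line by edgeR 4.0.16 (TMM, quasi-likelihood, R 4.3.3) with Benjamini-Hochberg adjustment. Standard errors are the log2 fold change over the root of F. The difference between the lines and the untreated comparison came from 1 fit of the 12 libraries. The scripts were tested on simulated data. Gene positions are GENCODE 44 on GRCh38, joined by Ensembl identifier. The members and the other lists were chosen with earlier results of these data known, and the lists received no test of their own. Values in every library are given for 15 members, those past the fold limit in a line or with the smallest p of their role group. The library values of CDC6 and POLA1 were added after their values were seen, as was the choice of MCM6 for the printed promoters. DESeq2 1.42.0, limma 3.58.1 on TPM, RSEM's effective gene lengths as offsets, other filters and left-out libraries were tried as alternatives.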

Additional observations from a re-analysis of the deposited data

Results flagged for a closer look

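The response to dox differed between the lines for 9 members in the interaction contrast of edgeR at an adjusted p below 0.01, all by less than 1.5-fold. As the log2 fold change in Pa-Tu-8902 minus that in MIA PaCa-2, the values were -0.436 for CDC6 (adjusted p = 0.00024), -0.483 for CDT1 (adjusted p = 0.00558), -0.516 for MCM2 (adjusted p = 0.000309), -0.443 for MCM3 (adjusted p = 0.000367) and -0.394 for MCM10 (adjusted p = 0.00188). They were -0.451 for POLA1 (adjusted p = 0.000463), -0.437 for POLD3 (adjusted p = 0.00045) and -0.362 for CHAF1B (adjusted p = 0.00414). GINS4 had the opposite sign, with 0.509 (adjusted p = 7.22e-05). These calls depended on the setting. MCM2 and MCM3 kept theirs under all 20 alternatives, while on both TPM scales the other 7 lost theirs, and with effective lengths as offsets 6 did, GINS4 among them. CDT1 lost its call under 10 of the 20 alternatives, CHAF1B under 9 and MCM10 under 5. Groups of 3 libraries are too small for a test of single outlying libraries, and none was made.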

How the results depend on the processing

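Of 450 values of the 15 named members in the lines under the alternatives, 426 kept their direction and side of the fold limit, 14 lost that call, 1 gained it and 9 changed sign. By the adjusted p alone 414 kept theirs, 25 lost it and 2 gained it. Of 180 values of the 9 differences between the lines, 145 kept theirs and 35 lost it. On log2(TPM + 0.1) and log2(TPM + 1) with limma, members lower past the fold limit numbered 1 and 1 for Pa-Tu-8902, then 2 and 0 for MIA PaCa-2, the member medians were -0.148 and -0.142, and -0.0716 and -0.0707, and with no fold limit 14 and 14 were lower for Pa-Tu-8902, 5 and 4 were lower and 1 and 1 higher in MIA PaCa-2, and 2 and 2 lower and 0 and 0 higher in the difference between the lines. Over all genes of these fits, those with a mean TPM of at least 1, the medians moved as well. They were 0.0585 and 0.0528 for Pa-Tu-8902 and 0.0655 and 0.059 for MIA PaCa-2, beside 0.00142 and -0.00891 in edgeR. The cause of these shifts was not tested. Without a fold limit the counts were 24 lower for Pa-Tu-8902, 17 lower and 3 higher for MIA PaCa-2, 8 lower and 1 higher in the difference, and 19 and 18 between the untreated lines, and at 2-fold they were 0, 0, and 3 and 6 for the untreated lines. DESeq2, DESeq2 size factors, 10 counts in every library and no filter each gave 1 member higher in the difference. With no fold limit, those higher in the difference were 3, 2, 3 and 2 in the same order, DESeq2 gave 5 higher in MIA PaCa-2, and no filter gave 1 higher in Pa-Tu-8902. Effective lengths as offsets, with no fold limit, left 19 lower in Pa-Tu-8902, and 12 lower and 4 higher in MIA PaCa-2. In the difference they left 4 lower and 0 higher.

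No pairing by replicate number was seen, as same-numbered residuals correlated at 0.237, -0.19 and 0.149 for Pa-Tu-8902, with 0.0495, -0.102 and -0.151 for MIA PaCa-2. With 3 libraries a group, these values cannot exclude a pairing or a shared batch. With a replicate block, 2 members passed the fold limit in Pa-Tu-8902, 5 did so in MIA PaCa-2, and with no fold limit 1 was higher for Pa-Tu-8902, 1 for MIA PaCa-2 and 2 for the difference.

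Leaving out 1 library gave 2 to 3 members lower for Pa-Tu-8902, then 3 to 5 for MIA PaCa-2, medians of -0.253 to -0.178 and of -0.152 to -0.0733, 0 to 1 higher in the difference, and 7 to 9 and 10 to 12 between the untreated lines. With no fold limit it gave 21 to 23 lower and 0 to 1 higher for Pa-Tu-8902, 11 to 21 lower and 1 to 5 higher for MIA PaCa-2, where 11 came without dox replicate 2 and 21 without untreated replicate 2, and 6 to 8 lower and 1 to 2 higher in the difference.

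Sign changes concerned values near 0. In Pa-Tu-8902, CDT1 was -0.00934 without dox replicate 2, RPA3 was 0.0337 without dox replicate 1, and GINS4 was 0.00468 with 10 counts in every library, 0.0223 and 0.0219 on the TPM scales, 0.023 and 0.0183 without dox replicates 1 and 3, and 0.0175 without untreated replicate 3. Without 1 library each, the 3 ranged from -0.00934 to 0.17, from -0.145 to 0.0337 and from -0.0232 to 0.023. In MIA PaCa-2, MCM3 was -0.00332 with effective lengths as offsets.

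Depth limits these values little by count, since the lowest member, POLE2, had a mean untreated normalized count of 509 in Pa-Tu-8902 and 656 for MIA PaCa-2, while 3 libraries a group limit how well the spread is known.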
